A study of Homo sapiens with 6 samples.

Results

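The genes described here load and hold the replicative helicase on DNA: the hexamer subunits MCM2, MCM3, MCM4, MCM5, MCM6 and MCM7, the loading factors CDC6 and CDT1, the CDT1 inhibitor geminin (GMNN) and the MCM binding protein MCMBP. All 10 listed symbols were found among the 15598 genes of the deposited table, and all 10 passed the filter on low counts, which left 11831 genes tested. They were chosen by gene symbol with measured values in view, because MCM3 and MCM7 had moved in opposite directions in the contrast described here. Their fold changes are therefore given as a description, with standard errors and no p-value. RNA was sequenced from MHCC97H, a highly metastatic hepatocellular carcinoma cell line. One group carried a short hairpin RNA against HNRNPC (shHNRNPC, 3 libraries: SI_3, SI_3_2 and SI_3_3) and the other a control hairpin (shcontrol, 3 libraries: NC_3, NC_3_2 and NC_3_3). The product of HNRNPC, hnRNP C, coats new transcripts in the nucleus and prefers runs of uridine. The labels tell apart 1 cell line and 1 hairpin against HNRNPC, and they do not say whether the cells were a pool or a clone, or whether the 3 libraries of a group came from separate cultures. The standard errors and p-values therefore measure the spread between these libraries, which may be technical.

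MCM2 to MCM7 form the ring-shaped motor that unwinds DNA at replication forks. In G1 phase the origin recognition complex and CDC6 receive the ring, which arrives bound to CDT1, and rings are placed on origins in an inactive state; this step is called licensing. Geminin binds CDT1 in S and G2 phase and keeps origins from being licensed again, and the rings are switched on in S phase by the kinase CDC7 together with CDC45 and the GINS complex. MCMBP binds MCM subunits outside chromatin. Proliferating cancer cells express these genes at high levels, and E2F transcription factors are known to drive most of them.

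The targeted gene was checked first. HNRNPC had 1010, 1164 and 1042 counts in the shHNRNPC libraries, against 14409, 13507 and 15908 counts in the shcontrol libraries, which left 7.30% of the shcontrol level. Total counts ran from 16692497 to 17889820 in shHNRNPC libraries and from 15563077 to 18328475 in shcontrol libraries, and no library stood apart. Of 11 listed hepatocyte and liver cancer markers 8 were in the table, and of these the keratins KRT8 and KRT18 alone averaged at least 1 CPM (counts per 1000000, with library sizes scaled by TMM). The summed level of the other 6, among them ALB, AFP and HNF4A, was 0.685 to 1.25 CPM in shHNRNPC libraries and 0.760 to 1.12 CPM in shcontrol libraries. The defining hepatocyte transcripts were thus near 0 in both groups. Fibroblast markers summed to 19.5 to 20.9 CPM in shHNRNPC libraries and 18.9 to 21.3 CPM in shcontrol libraries, mostly COL1A1. Leukocyte markers summed to at most 2.77 CPM in shHNRNPC libraries and 2.85 CPM in shcontrol libraries, and endothelial markers to at most 2.09 CPM in shHNRNPC libraries and 2.47 CPM in shcontrol libraries. The part of other cell types in the results was not tested.

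MCM3 and MCM7, the subunits that moved most in opposite directions, both carry the E2F-type letters TTTCGCGC at the RefSeq gene start. The letters run across the start in MCM3 and lie just before the start in MCM7. The windows printed first run from 130 bases before that start to 20 bases after it, read 5′ to 3′ on the gene's strand, from RefSeq on GRCh38.p14 (MCM3 at chr6:52284723-52284872, minus strand, and MCM7 at chr7:100101378-100101527, minus strand). Capitals mark the E2F-type letters TTTCGCGC, TTTGGCGC, TTTCCCGC or TTTGGCGG and the CCAAT box, searched on both strands.
MCM3: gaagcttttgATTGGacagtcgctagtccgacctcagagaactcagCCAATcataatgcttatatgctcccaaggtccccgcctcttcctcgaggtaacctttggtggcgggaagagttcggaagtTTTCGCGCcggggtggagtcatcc
MCM7: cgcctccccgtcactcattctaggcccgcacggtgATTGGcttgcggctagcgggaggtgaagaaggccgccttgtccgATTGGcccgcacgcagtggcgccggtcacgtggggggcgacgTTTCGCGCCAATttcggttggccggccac
TTTCGCGC starts 4 bases before the start in MCM3 and 9 bases before it in MCM7. Shorter windows of 4 more genes are shown because they hold the letters in other arrangements (MCM2 at chr3:127598391-127598440, plus strand, MCM6 at chr2:135876503-135876603, minus strand, CDT1 at chr16:88803739-88803798, plus strand, and CDC6 at chr17:40287829-40287898, plus strand).
MCM2: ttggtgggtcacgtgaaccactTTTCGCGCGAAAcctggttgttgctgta
MCM6: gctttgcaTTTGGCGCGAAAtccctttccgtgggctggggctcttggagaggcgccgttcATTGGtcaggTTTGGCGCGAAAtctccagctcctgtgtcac
CDT1: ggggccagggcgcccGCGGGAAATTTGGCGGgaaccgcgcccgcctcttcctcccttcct
CDC6: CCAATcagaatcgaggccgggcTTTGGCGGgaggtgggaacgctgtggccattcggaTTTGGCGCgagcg
In MCM2 the letters TTTCGCGC overlap their own reverse complement, in MCM7 they overlap a CCAAT box, and in MCM6 TTTGGCGC overlaps the reverse complement of TTTCGCGC at 2 places.

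RefSeq windows of 250 bases before and 50 bases after the start were matched for 8 of the 10 genes, and MCM4 and MCM5 are named only. At least 1 of the 4 E2F-type strings was present in 6 of those 8 windows, against 3.43% of all 27305 windows of that length and 5.71% of the windows of tested genes (538 of 9415). GMNN and MCMBP held none of them in this window. The last 50 bases of the MCMBP window did not match its longest coding transcript in GENCODE 29, so the lack of letters there is less certain. A CCAAT box was present in 4 of the 8 windows, against 35.7% of all windows. The string TTTCGCGC itself, held by 4 of the 8 genes, occurred in 0.55% of all windows. Among the 6 genes with E2F-type letters, log2 fold changes ran from -0.93 in MCM3 to 0.56 in CDT1. Outside the licensing genes, 532 tested genes held the letters, and 26.1% of these were called higher and 35.9% lower, with a median log2 fold change of -0.03. Over all 9415 tested genes with a window the shares were 29.5% and 32.1%, and the median was -0.01. Genes that share these letters thus included rises and falls in shares near those of all genes. A match is a description of letters and not of a bound site.

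MCM3 had the lowest fold change of the 10 genes. This subunit lies next to MCM5 in the ring. MCM3 had 124, 123 and 127 CPM in the shHNRNPC libraries, against 245, 236 and 232 CPM in the shcontrol libraries. Every shHNRNPC library was near the middle of the distance between 0 and the shcontrol level, and the groups were far apart. The mean was 125 ± 1.84 CPM in shHNRNPC and 238 ± 6.62 CPM in shcontrol (SD, n = 3 each), a log2 fold change of -0.93 (SE 0.0306), so that 0.525 of the shcontrol level remained. Of all tested genes, 2.16% had a log2 fold change as low or lower. The authors' deposited table gives -0.93 for MCM3.

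MCM7 was the most abundant licensing transcript and was higher in shHNRNPC. Together with MCM4 and MCM6 it makes up the catalytic core of the ring, and its gene hosts a microRNA cluster that was not measured here. MCM7 had 930, 923 and 931 CPM in the shHNRNPC libraries, against 729, 734 and 724 CPM in the shcontrol libraries. The 3 libraries of each group lay close to each other, and the gap between groups was many times wider. The mean was 928 ± 4.38 CPM in shHNRNPC and 729 ± 4.87 CPM in shcontrol (SD, n = 3 each), a log2 fold change of 0.35 (SE 0.0197). The authors' deposited table gives 0.35 for MCM7.

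MCM4 was lower and MCM5 slightly higher, while MCM2 and MCM6 differed least among the subunits. MCM4 had 365, 365 and 366 CPM in shHNRNPC libraries, against 480, 469 and 485 CPM in shcontrol libraries, a log2 fold change of -0.39 (SE 0.0230). The groups did not overlap, and the shHNRNPC libraries were almost identical. Their coefficient of variation (0.173%) was below the 1.26% given by counting noise alone, so this closeness does not measure precision. MCM5 had 319.3, 319.8 and 320.1 CPM in shHNRNPC libraries, against 279.7, 279.6 and 283.8 CPM in shcontrol libraries, a log2 fold change of 0.19 (SE 0.0247), again with no overlap. MCM2, the subunit with a histone-binding tail, averaged 690 ± 7.85 CPM in shHNRNPC and 645 ± 7.70 CPM in shcontrol (SD, n = 3 each), a log2 fold change of 0.10 (SE 0.0208). MCM6 had 137.0, 141.7 and 137.3 CPM in shHNRNPC libraries, against 130.4, 139.5 and 132.1 CPM in shcontrol libraries. It was the licensing gene whose groups overlapped, and its log2 fold change was 0.05 (SE 0.0338). In bulk RNA, a smaller share of cells that express a gene and less RNA per cell cannot be told apart.

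Of the loading factors, CDT1 was the further from its shcontrol level. CDT1, which brings the ring to the origin, had 183, 191 and 194 CPM in shHNRNPC libraries, against 128.2, 130.3 and 127.8 CPM in shcontrol libraries. All shHNRNPC values were above all shcontrol values, with a log2 fold change of 0.56 (SE 0.0317), a higher value than that of 93.8% of tested genes. CDC6, the ATPase that joins the origin recognition complex to load the ring, had 185, 172 and 176 CPM in shHNRNPC libraries, against 163, 162 and 158 CPM in shcontrol libraries (log2 fold change 0.14, SE 0.0312). GMNN had 67.3, 69.4 and 64.8 CPM in shHNRNPC libraries, against 56.0, 57.7 and 61.0 CPM in shcontrol libraries (log2 fold change 0.21, SE 0.0470). It was the least abundant licensing transcript by counts, and its groups lay close together. MCMBP had 145, 146 and 137 CPM in shHNRNPC libraries, against 130.2, 136.8 and 132.1 CPM in shcontrol libraries (log2 fold change 0.10, SE 0.0339). For MCMBP the lowest shHNRNPC library and the highest shcontrol library were separated by less than 1 CPM. Across the 10 genes the coefficient of variation within a group ran from 0.124% to 4.41%, with a median of 1.58%. The lowest value, that of MCM5 in shHNRNPC, was below the 1.35% given by counting noise alone. An SD that small from 3 libraries does not measure precision.

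**Figure D1:**
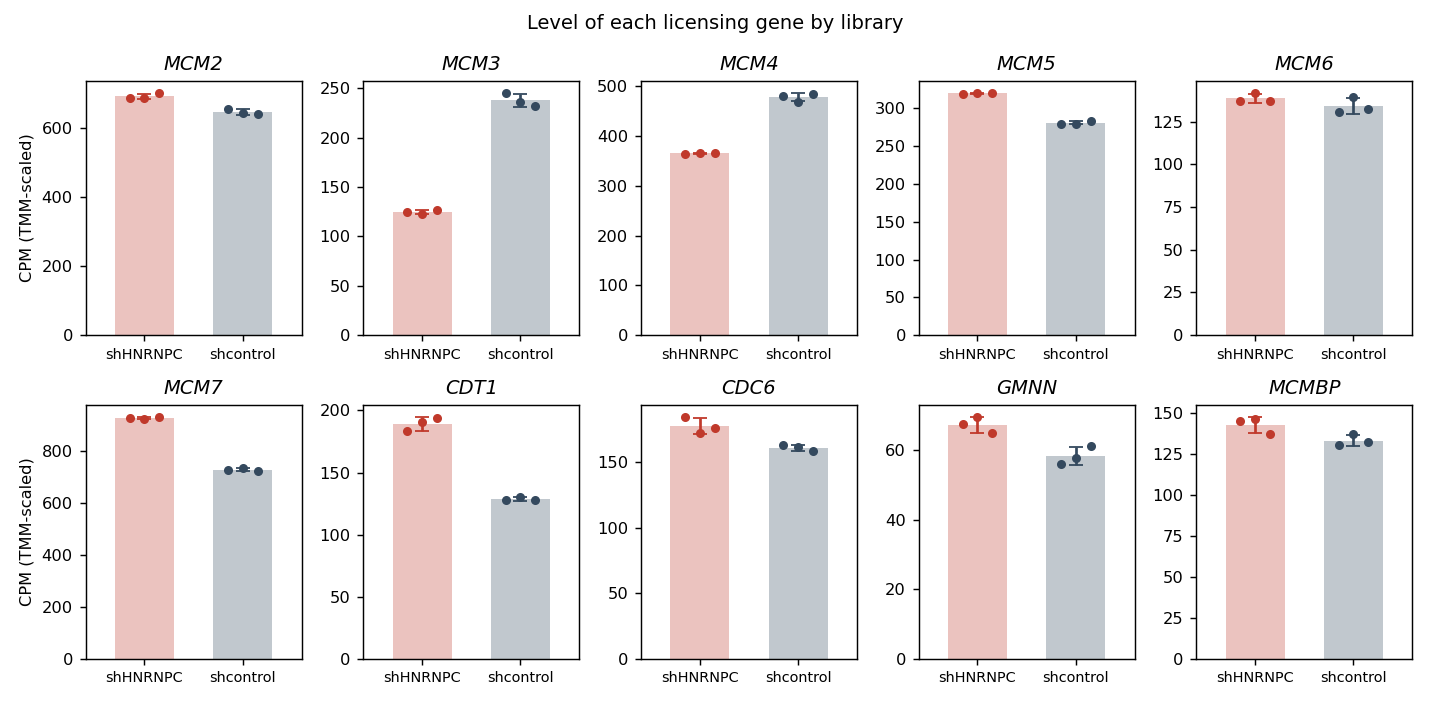
CPM (counts per 1000000, TMM-scaled, linear axis from 0) of each licensing gene; points are the 3 libraries of each group, bars the mean and error bars the SD. MCM3 and MCM4 are lower in shHNRNPC (125 against 238 CPM, and 365 against 478 CPM), MCM7 and CDT1 are higher (928 against 729 CPM, and 189 against 129 CPM), and MCM6 overlaps between groups.

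In the fit across all genes (edgeR's quasi-likelihood test, adjusted p under 0.05), 7 of the 10 licensing genes were called higher and 2 lower. Over all tested genes 61.1% were called, 29.8% higher and 31.3% lower. In 9 of the 10 genes the 3 values of each group did not overlap, as was the case for 64% of all tested genes. Since the genes were chosen with this contrast known, nothing is read from these counts. The median log2 fold change of the 10 genes was 0.12, beside -0.004 for all tested genes, and was 0.19 after a correction for GC content and length. Correcting the counts for GC content and transcript length changed which of the small differences were called. It put MCM2 at -0.02 and left it without a call, while MCM6 was called higher at 0.18. The correction also moved MCM5 to 0.07, MCM7 to 0.21, CDC6 to 0.22 and MCMBP to 0.29, and MCM3 to -1.03, MCM4 to -0.40 and CDT1 to 0.41. MCMBP had no call without the shHNRNPC library SI_3_2 (log2 fold change 0.08) or when libraries were scaled by their size alone (0.06).

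**Figure D2:**
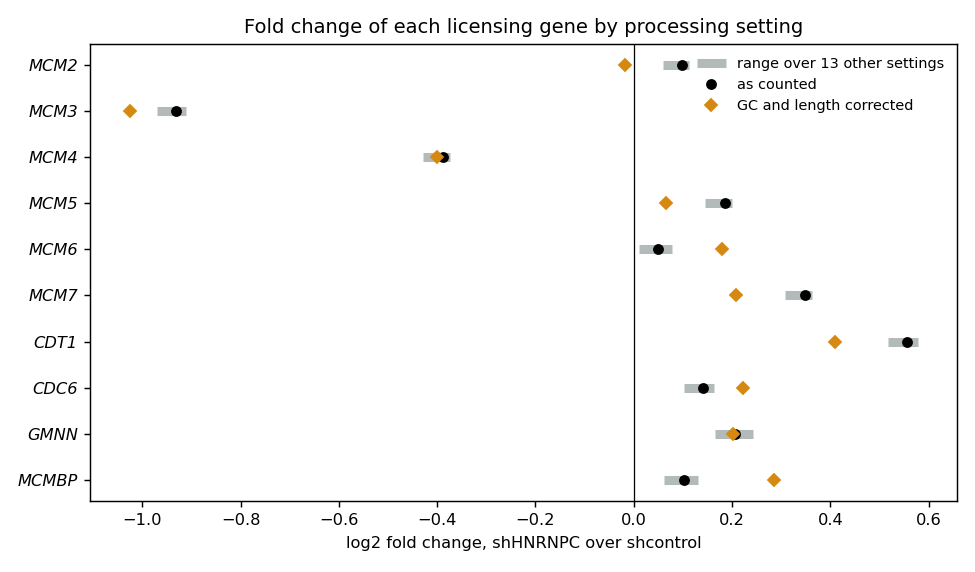
log2 fold change (shHNRNPC over shcontrol) of each licensing gene as counted (black), after the GC and length correction (orange) and over 13 other settings (grey bar: lowest to highest). MCM3 and MCM4 are below 0 and MCM5, MCM6, MCM7, CDT1, CDC6, GMNN and MCMBP above 0 under every setting plotted, and MCM2 is at -0.02 after the correction.

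Levels of different genes were compared per length, as CPM per kilobase of the longest coding transcript in GENCODE 29. In shHNRNPC, MCM7 had the highest level per kilobase (301 ± 1.42), followed by MCM2 (191 ± 2.17), MCM5 (90.5 ± 0.112), MCM4 (87.3 ± 0.151), CDT1 (58.4 ± 1.72), GMNN (53.2 ± 1.82), MCM3 (38.8 ± 0.573), MCM6 (37.1 ± 0.705), CDC6 (36.9 ± 1.32) and MCMBP (34.2 ± 1.16; SD, n = 3). In shcontrol the order of levels per kilobase was MCM7 (236 ± 1.58), MCM2 (178 ± 2.13), MCM4 (114 ± 1.93), MCM5 (79.5 ± 0.675), MCM3 (74.1 ± 2.06), GMNN (46.1 ± 2.03), CDT1 (39.7 ± 0.414), MCM6 (35.9 ± 1.29), CDC6 (33.5 ± 0.485) and MCMBP (31.9 ± 0.813; SD, n = 3). MCM4 and MCM5 thus changed places, as did CDT1 and GMNN, and MCM3 stood next to MCM6 in shHNRNPC. Neighbours in these orders did not overlap over the 3 libraries, except that CDC6 overlapped MCM6 and MCM3 in shHNRNPC. The orders rest on 1 transcript length a gene (3534 bases for MCM5 and 4183 bases for MCM4). Close neighbours such as MCM5 and MCM4 in shHNRNPC could change places with other lengths. The orders were not computed after the GC and length correction.

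The summed level of the hexamer genes differed little between groups, while its make-up differed more. The sum of MCM2 to MCM7 was 743.7, 742.5 and 749.2 CPM per kilobase in shHNRNPC libraries, against 721.9, 717.0 and 715.4 CPM per kilobase in shcontrol libraries, a ratio of 1.04. With libraries scaled by size alone the ratio was 1.01, and under both scalings the shHNRNPC libraries lay above the shcontrol libraries. The sum and the shares were not computed after the GC and length correction. That correction lowered the log2 fold change of every subunit except MCM6, with MCM7 at 0.21 and MCM2 at -0.02. It put MCM6 at 0.18. Whether the sum would still be higher in shHNRNPC under that correction was thus not tested. MCM3 made up 5.21% ± 0.0535 of the sum in shHNRNPC and 10.3% ± 0.238 in shcontrol (SD, n = 3 each). MCM4 made up 11.7% ± 0.0382 in shHNRNPC and 15.9% ± 0.281 in shcontrol. MCM7 made up 40.4% ± 0.133 in shHNRNPC and 32.9% ± 0.246 in shcontrol. The shares of MCM2 (25.6% in shHNRNPC and 24.8% in shcontrol) and MCM5 (12.1% in shHNRNPC and 11.1% in shcontrol) moved little, and that of MCM6 overlapped between groups (4.98% in shHNRNPC and 4.99% in shcontrol). These are shares of transcripts, and subunit protein was not measured.

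**Figure D3:**
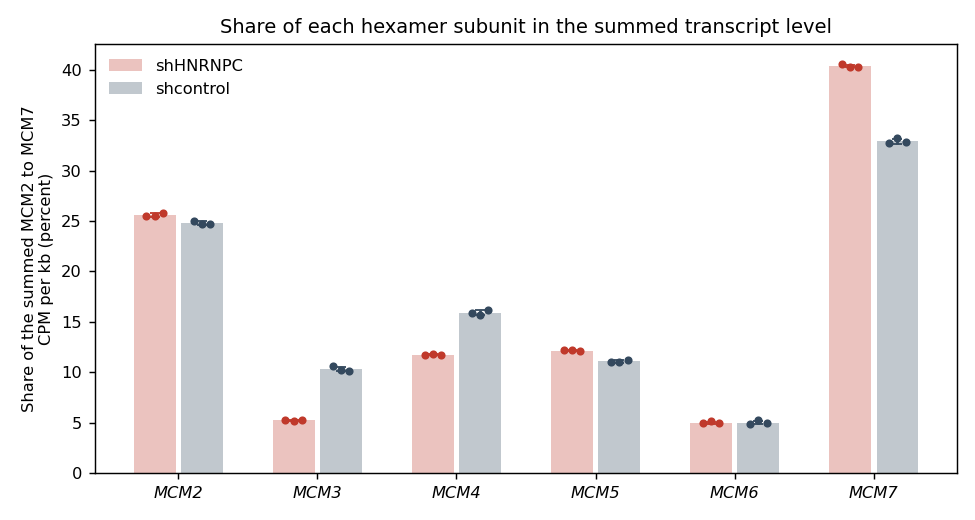
Share of each subunit (percent, linear axis from 0) in the summed CPM per kilobase of MCM2 to MCM7; points are the 3 libraries of each group, bars the mean and error bars the SD. MCM3 takes 5.21% in shHNRNPC against 10.3% in shcontrol, and MCM7 takes 40.4% in shHNRNPC against 32.9% in shcontrol.

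Ratios of levels per kilobase within a library also differed between groups. MCM3 and MCM5 are neighbours in the ring. Their ratio, MCM3 over MCM5, was 0.429, 0.423 and 0.435 in shHNRNPC libraries, against 0.965, 0.928 and 0.901 in shcontrol libraries. Per kilobase, transcripts of the pair were close to even in shcontrol and far from even in every shHNRNPC library. MCM2 over MCM5 was 2.11 ± 0.0220 in shHNRNPC and 2.24 ± 0.0405 in shcontrol (SD, n = 3 each). MCM3 over MCM7 was 0.129 ± 0.00137 in shHNRNPC and 0.313 ± 0.00857 in shcontrol (SD, n = 3 each). MCM4 over MCM7, members of the catalytic core, was 0.290 ± 0.00124 in shHNRNPC and 0.483 ± 0.0113 in shcontrol. CDT1 over its inhibitor GMNN was 1.06, 1.07 and 1.17 in shHNRNPC libraries, against 0.892, 0.880 and 0.816 in shcontrol libraries. The ratio was above 1 in each shHNRNPC library and below 1 in each shcontrol library. These levels rest on transcript lengths of 3240 bases for CDT1 and 1262 bases for GMNN. By CPM alone CDT1 was above GMNN in both groups (189 against 67.2 CPM in shHNRNPC, 129 against 58.2 CPM in shcontrol). Whether a ratio lies near 1 thus depends on the lengths used. CDC6 over CDT1 was 0.633 ± 0.0399 in shHNRNPC and 0.842 ± 0.0123 in shcontrol.

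The 10 genes shared little in position or structure. In the deposited table, whose positions overlap the GRCh38 gene of the same name in 96.1% of cases, they lie on 9 chromosomes, and only MCM3 (52264014 to 52284881, minus strand) and GMNN (24774931 to 24786095, plus strand) share one, chromosome 6. MCM7 lies on chromosome 7 (100092781 to 100101940, minus strand), CDT1 on chromosome 16 (88803213 to 88809258, plus strand) and MCM4 on chromosome 8 (47960898 to 47977089, plus strand). The genes span 6.05 kb for CDT1 to 41.7 kb for MCMBP, and their longest coding transcripts have 7 exons in GMNN to 17 exons in MCM3, MCM5 and MCM6. Transcript GC content was 64.9% in CDT1, 58.1% in MCM2, 57.6% in MCM7 and 56.6% in MCM5. It was 51.6% in MCM3, 48.5% in MCM4, 45.5% in CDC6, 43.6% in GMNN, 43.1% in MCM6 and 42.2% in MCMBP.

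A pair of neighbours start within 1000 bases of a licensing gene's start. PRKDC, the catalytic subunit of DNA-dependent protein kinase, is read away from MCM4, with 715 bases between the starts. PRKDC had 574, 543 and 577 CPM in shHNRNPC libraries, against 743, 771 and 775 CPM in shcontrol libraries. It fell (log2 fold change -0.43, SE 0.0229, edgeR's adjusted p = 3.75e-21), and its fold change and that of MCM4 (-0.39) were alike in size. After the GC and length correction PRKDC was at -0.23 and MCM4 at -0.40. AP4M1, a subunit of the AP-4 vesicle adaptor, overlaps the first bases of MCM7 in opposite orientation by the deposited positions, with 276 bases between the starts. The RefSeq start used for the printed MCM7 window lies further inside MCM7, and counted from there MCM7 does not reach AP4M1. AP4M1 averaged 11.3 ± 1.10 CPM in shHNRNPC and 10.3 ± 1.18 CPM in shcontrol (log2 fold change 0.14, SE 0.108, adjusted p = 0.250; -0.05 after the correction), far below MCM7. The use of strand in counting is not given in the sources used here, so reads between the genes' starts cannot be assigned to either gene with certainty.

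The other genes of the pathway were grouped by role in 7 lists with 81 genes, of which 80 were tested (E2F2 was at or near 0 in all libraries). Of the 80, 27 were called higher (33.8%), 31 lower (38.8%) and 22 did not pass, with a median log2 fold change of -0.02, beside 29.8% higher and 31.3% lower for all genes. These lists were written with earlier results of these data known. The median of the 80 was -0.01 after the GC and length correction and -0.06 with libraries scaled by size alone.

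Of 7 origin recognition genes 1 rose and 3 fell (median -0.05; 0.02 after the GC and length correction). ORC6, the smallest subunit of the complex, rose, with 218 ± 4.07 CPM in shHNRNPC and 149 ± 1.68 CPM in shcontrol (log2 fold change 0.55, SE 0.0295, adjusted p = 7.78e-21). ORC3 fell, with 10.4 ± 0.538 CPM in shHNRNPC and 15.2 ± 1.12 CPM in shcontrol (-0.55, SE 0.0965, adjusted p = 3.71e-06), and ORC2 (-0.26) and ORC4 (-0.34) also fell. After that correction 2 of the list were higher and 3 lower, ORC3 was at -0.32, and ORC2 (0.02) and ORC4 (0.07) lost their calls. ORC1, which contacts CDC6, did not pass as counted, with 62.2 ± 1.57 CPM in shHNRNPC and 63.0 ± 4.08 CPM in shcontrol (-0.02), and was called lower after the correction (-0.11). Of the MCM relatives outside the hexamer, MCM8, a helicase of homologous recombination, fell, with 25.9 ± 0.577 CPM in shHNRNPC and 47.1 ± 0.806 CPM in shcontrol (-0.86, SE 0.0589, adjusted p = 3.33e-17). MCM9, its partner, did not pass at 5.16 CPM in shHNRNPC and 5.06 CPM in shcontrol. MCMDC2, a meiotic relative, rose, with 30.8 ± 2.65 CPM in shHNRNPC and 20.3 ± 0.535 CPM in shcontrol (0.60, SE 0.0727, adjusted p = 1.18e-09; 0.96 after the correction).

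Among 14 genes of origin firing 3 rose and 6 fell (median -0.05), and 5 rose and 5 fell after the GC and length correction (median -0.01). CDC7, the kinase that phosphorylates the loaded ring, fell, with 11.4 ± 1.06 CPM in shHNRNPC and 20.4 ± 0.691 CPM in shcontrol (log2 fold change -0.84, SE 0.0889, adjusted p = 3.17e-11). Its activator DBF4 fell as counted (-0.40, adjusted p = 0.00115), and its call was lost after the correction (-0.13). TOPBP1, a scaffold of helicase activation, fell (-0.39, adjusted p = 4.27e-09; -0.17 after the correction). CDC45, which travels with the active helicase, rose, with 85.9 ± 0.818 CPM in shHNRNPC and 66.3 ± 2.70 CPM in shcontrol (0.37, SE 0.0426, adjusted p = 2.17e-10; 0.23 after the correction). Of the GINS subunits, GINS3 (0.32) and GINS2 (0.22; 0.13 after the correction) rose, GINS4 fell (-0.22), and GINS1 did not pass as counted (-0.002) but was called higher after the correction (0.18). GINS1 and GINS4 were named after their values were seen.

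Of 10 genes of licensing control 4 rose and 3 fell (median 0.01). After the GC and length correction 5 were higher and 3 lower (median 0.16), and with libraries scaled by size alone 4 were higher and 4 lower (median -0.03). CUL4B, a scaffold of the ubiquitin ligase that marks CDT1 for destruction in S phase, fell, with 65.4 ± 1.01 CPM in shHNRNPC and 130 ± 1.28 CPM in shcontrol (log2 fold change -0.99, SE 0.0382, adjusted p = 3.23e-26; -0.62 once corrected for GC content and length). CUL4A, the other scaffold of that ligase, had 182 ± 5.07 CPM in shHNRNPC and 185 ± 2.84 CPM in shcontrol and did not pass as counted (-0.03, SE 0.0299); it was called higher after the correction (0.21) and lower with libraries scaled by size alone (-0.07). DTL, its substrate receptor for CDT1, did not pass either as counted (0.05, SE 0.0467) and was called higher after the correction (0.25). The adaptor DDB1 fell slightly (-0.09, adjusted p = 8.99e-04; -0.15 after the correction). CUL4A and DTL were named after their values were seen. SKP2, the receptor of another ligase that acts on CDT1, rose (0.17, adjusted p = 1.04e-05; 0.38 after the correction), as did the kinase CDK2 (0.25, adjusted p = 1.34e-07; 0.16 after the correction). CCNE1, a cyclin that activates CDK2, rose as counted (0.18, adjusted p = 0.00382) and had no call after the correction (0.01). FZR1, an activator of the anaphase-promoting complex, fell by a small amount (-0.08, adjusted p = 0.0434; -0.15 after the correction) and kept a call in 5 of 14 alternatives; it was lost without SI_3, SI_3_3, NC_3 or NC_3_2 (log2 fold changes -0.07 to -0.08).

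The replisome, 27 genes that copy DNA behind the helicase, had 8 higher and 12 lower (median -0.07; -0.11 with libraries scaled by size alone). POLA1, the catalytic subunit of DNA polymerase alpha, fell, with 50.3 ± 1.09 CPM in shHNRNPC and 80.1 ± 1.88 CPM in shcontrol (log2 fold change -0.67, SE 0.0453, adjusted p = 2.17e-17), whereas its partner POLA2 rose, with 16.3 ± 1.42 CPM in shHNRNPC and 11.4 ± 1.41 CPM in shcontrol (0.52, SE 0.0981, adjusted p = 1.14e-05). RFC1, the large subunit of the clamp loader, fell (-0.68, adjusted p = 8.57e-17; -0.45 once corrected for GC content and length), and of its small subunits RFC4 rose (0.30, adjusted p = 2.81e-07) while RFC2 (-0.47, adjusted p = 1.17e-13) and RFC5 (-0.39, adjusted p = 1.24e-09) fell. RFC3 did not pass as counted (0.02) and was called higher after the correction (0.26). RFC2, RFC3 and RFC5 were named after their values were seen. WDHD1, which ties polymerase alpha to the helicase, fell as counted (-0.57, adjusted p = 8.72e-06) and lost its call after the correction (-0.18). RPA3, a subunit of the single-strand binding protein, rose (0.49, adjusted p = 5.80e-11). Polymerase alpha and the clamp loader thus each held subunits called in opposite directions.

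Of 10 genes that take the helicase off DNA at the end of replication, 7 rose and 3 fell (median 0.12). This split was 4 and 3 when libraries were scaled by size alone, and 3 and 3 after the GC and length correction (median 0.04). LRR1, the receptor that targets the helicase for unloading, rose, with 79.5 ± 2.39 CPM in shHNRNPC and 56.9 ± 3.51 CPM in shcontrol (log2 fold change 0.48, SE 0.0466, adjusted p = 2.16e-12). CUL2, the scaffold of the same ligase, fell, with 12.5 ± 0.628 CPM in shHNRNPC and 22.0 ± 0.875 CPM in shcontrol (-0.81, SE 0.0840, adjusted p = 1.47e-11; -0.49 after the correction). The adaptor ELOC rose (0.38, adjusted p = 4.41e-14). TRAIP, a ligase that also acts on the helicase, rose as counted (0.25, adjusted p = 0.00314) and had no call after the correction (0.08). Cofactors of the VCP segregase were called in both directions. NPLOC4 (-0.20, adjusted p = 4.79e-09) and UBXN7 (-0.35, adjusted p = 4.03e-09) fell, and UBXN7 lost its call after the correction (0.04). UFD1 (0.11, adjusted p = 0.0194) and FAF1 (0.15, adjusted p = 0.0383; 0.29 after the correction) rose as counted and were named after their values were seen. UFD1 kept its call in 8 of 14 alternatives, and lost it without SI_3, SI_3_2, NC_3 or NC_3_2 (0.08 to 0.10). After the correction UFD1 was at 0.04. FAF1 kept its call in 6 of 14, and lost it without SI_3_2, SI_3_3, NC_3 or NC_3_3 (0.13 to 0.15).

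Of the 9 E2F and DP factors tested 3 rose and 3 fell (median 0.04; -0.03 after the GC and length correction); with DESeq2, or without SI_3 or NC_3_3, 3 rose and 1 fell. E2F1, an activator of licensing genes, had 214 ± 4.93 CPM in shHNRNPC and 207 ± 4.84 CPM in shcontrol and did not pass as counted (log2 fold change 0.05, SE 0.0286). E2F1 was called lower after the correction (-0.11) and higher with upper quartile scaling (0.07); it was named after its values were seen. E2F5 (0.36, adjusted p = 0.00366) and E2F6 (0.34, adjusted p = 4.61e-05) rose. E2F4 rose as counted (0.14, adjusted p = 3.79e-06) and had no call after the correction (-0.04). E2F8 (-0.23, adjusted p = 0.0104), TFDP2 (-0.16, adjusted p = 0.0148) and E2F3 (-0.15, adjusted p = 0.0212) fell as counted. E2F8 lost its call without SI_3_2 (-0.19) or NC_3_2 (-0.17), and TFDP2 and E2F3 lost theirs without SI_3 (-0.12 and -0.13), without NC_3_3 (-0.13 and -0.12), with DESeq2 (-0.16 and -0.14) and after the correction (-0.03 and -0.06).

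**Figure D4:**
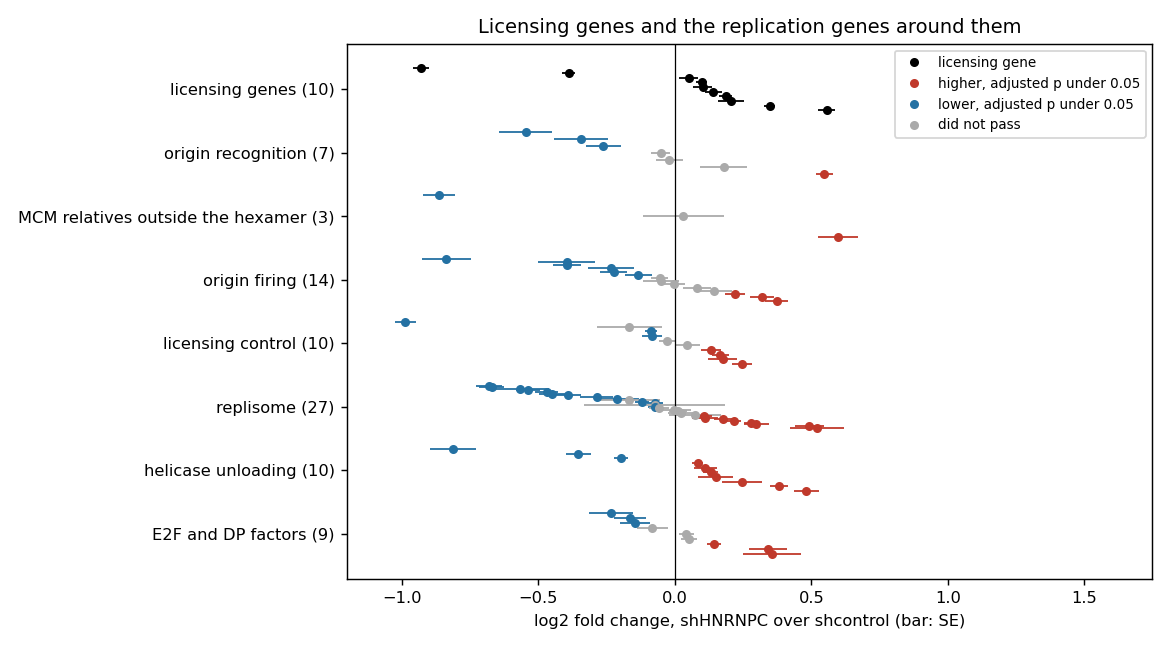
log2 fold change (shHNRNPC over shcontrol; bars are SE) of the 10 licensing genes and of 80 tested genes in 7 lists, each list with its number of genes. MCM3 at -0.93 and CDT1 at 0.56 mark the ends of the licensing genes, and each of the other lists holds genes on both sides of 0.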

How the data were processed

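RNA sequencing of 6 MHCC97H libraries (3 shHNRNPC, 3 shcontrol) was analysed from the authors' gene table. STAR, HTSeq 0.6.0 and DESeq2 appear in the submitters' processing notes; for genome build, annotation and strand, the sources say nothing (not given in the sources used here). Whole-number gene counts were deposited by the authors without normalisation. The authors' log2 fold changes are quoted for 2 genes, and the authors' deposited p-values were not used. Column names gave the group (SI, NC) and not the single sample, so 1 measure, the counts, was used. Another 24 per-library columns were left aside, among them length-scaled values that were planned for levels between genes; CPM per kilobase of transcript took their place.

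Counts were fitted in R 4.3.3 with edgeR 4.0.16 (filterByExpr, TMM, glmQLFit and glmQLFTest, two-sided, Benjamini-Hochberg over all 11831 tested genes, threshold 0.05). Each standard error is the size of the fold change over the root of F. The script was tested on simulated counts. CPM divides counts by TMM-scaled library size. The GC and length correction used smooths per library (mgcv 1.9.3) on the longest coding transcript of GENCODE 29. Pathway genes were named by rule: up to 3 higher and 3 lower genes of each list with the largest change among those called with a mean of at least 5 CPM, plus neighbours that overlap a licensing gene or start within 1000 bases of its start; pathway genes below the threshold and others outside the rule were added with their values known. The licensing genes and all lists were chosen with earlier results of these data known. Each library was counted once in the fit. Over genes with at least 20 counts, the chi-square per gene between 2 libraries was 1.56 to 2.50 inside a group and 29.5 to 33.7 across groups. These values cannot show whether the libraries of a group came from separate cultures. Alternatives were RLE, upper quartile and library size scaling, DESeq2 1.42.0, other filters on low counts, a replicate block, the GC and length correction and leaving out each library. Runs of uridine in introns were not analysed here.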

Additional observations from a re-analysis of the deposited data

How the results depend on the processing

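Over 14 alternatives, the numbers of all, licensing and pathway genes called higher and lower stayed within 1.5 times of their values (84 of 84 comparisons). Of the licensing genes 6 to 7 were called higher and 2 lower, and of the pathway genes 22 to 29 were higher and 23 to 35 lower; DESeq2 gave 25 and 23 pathway genes. Of 854 values of 61 single genes, 44 lost a call, 9 gained one and 26 changed sign. Of the sign changes, 18 in 5 genes (AP4M1, ORC1, MCM9, GINS1 and RFC3) had no call on either side. The other 8 came after the GC and length correction. MCM2 (log2 fold change -0.0185), ORC2 (0.0162), ORC4 (0.0701), UBXN7 (0.0382) and E2F4 (-0.0407) lost their calls there, and GINS1 (0.179), CUL4A (0.215) and E2F1 (-0.113) gained one. The cause was not tested; the correction used 1 transcript a gene, which can differ from the one expressed. Levels by the authors' length-scaled values were not run. Scaling by library size alone put the median of all genes at -0.04.

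The column suffixes are shared between groups but the labels do not tie them to replicate numbers. Deviations from the group means correlated at -0.04 to 0.01 between libraries of the same suffix over 11831 genes, and 2 of 6 libraries correlated best with their own suffix, so the suffix was not treated as a pairing. With the suffix as a replicate block, 3488 genes were higher and 3671 lower, against 3520 and 3708 without it, and no call of the 61 single genes changed.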
